A study of Homo sapiens with 18 samples.

Results

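Chemokine mRNAs were followed in Hep3B cells, a human hepatoma line, under free fatty acid (FFA) loading. The 10 genes are CXCL1, CXCL2, CXCL3, CXCL5, CXCL6, CXCL8, CXCL16, CCL2, CCL20 and CX3CL1. They were taken by name from a table of 36684 gene symbols, and 9 of the 10 passed the filter on low counts, among 14557 genes that did. The members were chosen by name with measured values of these same libraries in view, namely their counts and log2 fold changes in every group. The calls given for them below therefore describe these libraries and are no independent evidence about the genes.

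The 18 libraries of polyadenylated RNA form 6 groups of 3. Con cells received no FFA. The other 5 groups received FFA: Model alone, FUCO-0.5, FUCO-1 and FUCO-2 with fucoxanthin (a marine carotenoid) at 0.5, 1 and 2 μM, and RES with Resmetirom, an agonist of thyroid hormone receptor β that served as the reference drug. All groups are the same cell line without added immune or stromal cells, and the FFA concentration, exposure times and Resmetirom dose of these libraries are not given in the sources used here. Totals ran from 16916688 to 23083498 counts per library.

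Chemokines are small secreted proteins that draw leukocytes along a gradient by binding G protein-coupled receptors. The CXC chemokines with a Glu-Leu-Arg motif (CXCL1, CXCL2, CXCL3, CXCL5, CXCL6 and CXCL8) attract neutrophils through the receptors CXCR1 and CXCR2, CCL20 attracts CCR6-bearing lymphocytes and dendritic cells, and CCL2 attracts monocytes through CCR2. CX3CL1 and CXCL16 are made as membrane-bound proteins that ADAM proteases can shed. In liver, injured hepatocytes can release several of these proteins, and their genes are known targets of NF-κB and AP-1, transcription factors switched on by inflammatory and stress signals.

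The 6 neutrophil-attracting genes lie within 359 kb of chromosome 4, a stretch that holds 9 protein-coding genes in the RefSeq annotation of GRCh38.p14. CXCL8 is at chr4:73740569-73743716, CXCL6 at chr4:73836678-73838760, CXCL1 at chr4:73869393-73871308, CXCL5 at chr4:73995642-73998677, CXCL3 at chr4:74036589-74038689 and CXCL2 at chr4:74097040-74099195. CCL20 is on chromosome 2, CX3CL1 on chromosome 16, and CXCL16 and CCL2 on chromosome 17. RefSeq promoter sequences (GRCh38.p14) were found for 7 of the 10. They are shown because these genes rose together after FFA and were then not all called under the same treatments. Whether the genes differed in response was not tested. Each line gives the 140 bases before the annotated start, 5′ to 3′ on the gene's own strand. Capitals mark the 9 letters GGAATTTCC, the AP-1 motif TGANTCA and the TATA box TATAAA.
CXCL8: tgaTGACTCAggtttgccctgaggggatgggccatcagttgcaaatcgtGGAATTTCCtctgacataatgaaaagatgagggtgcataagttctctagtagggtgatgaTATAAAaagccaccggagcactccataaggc
CXCL1: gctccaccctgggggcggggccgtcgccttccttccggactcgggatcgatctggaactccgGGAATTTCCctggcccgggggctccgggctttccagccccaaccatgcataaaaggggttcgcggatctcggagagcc
CXCL2: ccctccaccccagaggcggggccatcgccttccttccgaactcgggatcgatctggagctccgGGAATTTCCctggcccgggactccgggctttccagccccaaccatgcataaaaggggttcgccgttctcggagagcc
CXCL3: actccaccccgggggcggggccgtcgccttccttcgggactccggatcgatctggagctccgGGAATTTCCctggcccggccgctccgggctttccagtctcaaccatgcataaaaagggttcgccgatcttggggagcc
CXCL5: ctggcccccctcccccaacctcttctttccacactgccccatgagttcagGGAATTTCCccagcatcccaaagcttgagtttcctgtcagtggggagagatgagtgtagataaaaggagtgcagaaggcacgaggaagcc
CXCL6: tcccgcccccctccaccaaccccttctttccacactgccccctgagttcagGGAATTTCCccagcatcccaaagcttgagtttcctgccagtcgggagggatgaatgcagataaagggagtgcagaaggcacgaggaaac
CCL20: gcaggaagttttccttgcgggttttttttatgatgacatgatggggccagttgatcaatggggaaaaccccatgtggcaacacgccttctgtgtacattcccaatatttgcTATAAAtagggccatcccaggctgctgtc

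These stretches are chr4:73740429-73740568 (plus strand) for CXCL8, chr4:73869253-73869392 (plus) for CXCL1, chr4:74099196-74099335 (minus) for CXCL2, chr4:74038690-74038829 (minus) for CXCL3, chr4:73998678-73998817 (minus) for CXCL5, chr4:73836538-73836677 (plus) for CXCL6 and chr2:227813702-227813841 (plus) for CCL20. Motifs were searched on both strands of the 300-base windows that run from 250 bases before the start. The 9-letter run, picked after the sequences were seen, stood in all 6 chromosome 4 promoters and in 0.461% of the 35116 promoters of the table. The general NF-κB consensus overlaps that run in CXCL1, CXCL2, CXCL3, CXCL5 and CXCL6, matched CCL20 at other letters, was not matched by CXCL8, and stood in 11.3% of all promoters. CXCL8 alone of the 7 held the AP-1 motif (7.71% of all promoters). CXCL8 and CCL20 held the TATA letters (11.5%). Aligned at the 9-letter run, CXCL1 and CXCL3 were identical at 90.7% of bases and CXCL5 and CXCL6 at 91.4%, whereas CXCL8 matched the other 5 at 28.3% to 32.4%. A match of letters is a description and says nothing of binding in these cells.

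In unloaded Con cells most of the family was already transcribed. As CPM (each gene's reads scaled to library size) per kilobase of the canonical transcript, CCL20 stood highest in Con at 105 ± 16.8 (SD, n = 3), followed by CXCL8 at 30.7 ± 10.6, CX3CL1 at 28.3 ± 2.97 and CXCL16 at 27.2 ± 1.12, and the last 3 do not differ beyond their spread. CXCL1 (21.2 ± 4.34) was next in mean but overlapped CXCL8 in range. CXCL5 (9.30 ± 1.23) and CXCL2 (7.65 ± 1.12) overlapped each other, above CXCL3 (2.78 ± 0.726) and CXCL6 (1.79 ± 0.137). CCL20 stayed first per kilobase in all 6 groups, and CXCL6 stayed ninth, above CCL2.

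CCL2, the monocyte attractant, was close to absent. Its counts were 0, 0, 0 in Con, Model, FUCO-1 and FUCO-2, 0, 0, 1 in FUCO-0.5, and 4, 1, 4 in RES. A count of 0 allows up to 3 counts, or 0.121 to 0.179 CPM by library, so expression below that level was not detectable. The gene did not pass the filter and was not in the main edgeR fit. With no filter on low counts, the RES libraries were called higher than Model for CCL2 (adjusted p = 0.0342), on 9 counts in all against 0, and no fold is given because both groups lie at or near this floor. That limit covers counting error only, because the reads were not tagged by molecule.

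To see what FFA loading did to the family, Model was compared with Con. All 6 neutrophil attractants rose more than 4-fold, CCL20 rose 3.36-fold and CX3CL1 1.62-fold, whereas CXCL16 fell slightly. In edgeR's quasi-likelihood fit with Benjamini-Hochberg adjustment over 14557 genes, 8 members were higher (8.43% of all genes tested were) and 1 lower (9.12% of all genes). 7 of them also changed by more than 1 on the log2 scale, as did 1.23% of all genes upwards. In 8 members every Model library lay above every Con library (17.9% of all genes), and the median log2 fold change of the 9 was 2.15 against 0.001 over all genes.

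CXCL8 encodes interleukin-8, the best known neutrophil attractant. Con libraries held 1216, 730 and 691 raw counts and Model libraries 3859, 5446 and 4242. Model libraries all exceeded Con libraries by a wide margin (log2 fold change 2.30 ± 0.31 SE, adjusted p = 9.75e-06). CXCL2 had counts of 156, 119 and 175 in Con and 743, 714 and 832 in Model, with no overlap (2.29 ± 0.30, adjusted p = 8.68e-06). CXCL1 went from 533, 364 and 413 to 1743, 2208 and 1990, and the ranges again stood apart (2.12, adjusted p = 3.97e-06). CXCL3, the least counted of the GRO genes CXCL1, CXCL2 and CXCL3, had 67, 40 and 50 counts in Con and 217, 288 and 253 in Model (2.21, adjusted p = 0.000203). These 3 genes share sequence: 5.63% of 50-base windows of the CXCL2 transcript occur unchanged in CXCL1 and 5.07% in CXCL3. The study sequenced paired reads longer than 50 bases, so these shares do not show how many reads fit more than a single gene. How any such reads were counted is not given in the sources used here.

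CXCL5 and CXCL6 are the other close pair, and no 50-base window of their canonical transcripts is shared. CXCL5 counts were 452, 345 and 394 in Con and 1514, 2115 and 1868 in Model (2.15, adjusted p = 4.97e-08). CXCL6 counts were 46, 50 and 48 in Con and 210, 275 and 230 in Model (2.25, adjusted p = 2.33e-07). Neither gene's groups overlapped. CXCL5 also overlaps LOC124900715 in RefSeq. CCL20 counts were 1781, 1272 and 1536 in Con and 4806, 5394 and 5848 in Model, all of the latter higher (1.75, adjusted p = 2.96e-07). The membrane-bound pair moved least. CX3CL1 counts were 1795, 1494 and 1583 in Con and 2630, 2854 and 2744 in Model (0.70, adjusted p = 6.25e-05). CXCL16 counts were 1097, 1099 and 1117 in Con and 895, 995 and 908 in Model (-0.30, adjusted p = 0.00607), the only member that fell. CXCL16 overlaps MED11 and ZMYND15 in RefSeq, and whether counting used the strand is not given in the sources used here.

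**Figure D1:**
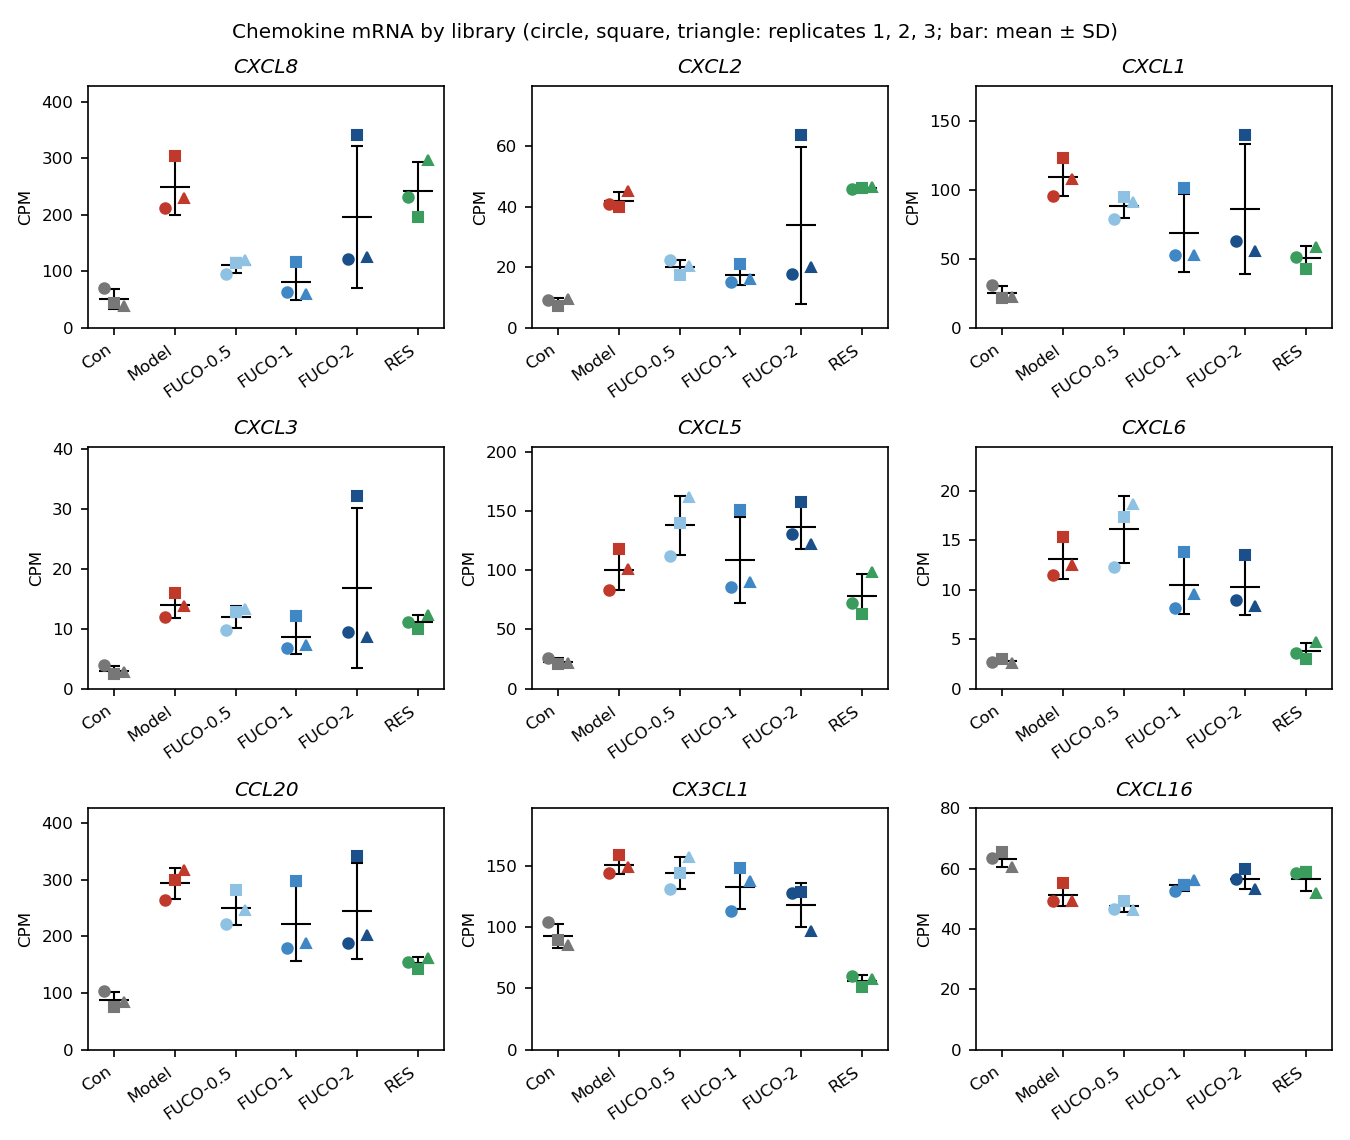
Level of each tested chemokine in CPM (y axis, from 0) in the 18 libraries, by group (x axis). Symbols are replicates 1, 2 and 3, and bars give the mean ± SD (n = 3). All Model libraries lie above all Con libraries except for CXCL16, and in FUCO-2 the square of replicate 2 stands far above the others for CXCL8 (341 CPM against a lowest value of 122), CXCL2, CXCL1 and CXCL3.

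The lower doses of fucoxanthin were then compared with Model. CXCL8 and CXCL2 were lower at both, while the other 7 tested members did not pass the threshold. At 0.5 μM, CXCL8 had counts of 1728, 2196 and 2157, which is 44.3% of the Model level in mean CPM, and CXCL2 had 404, 335 and 363, or 47.8%. At 1 μM, CXCL8 had 1277, 2122 and 1053 (32.2%), and CXCL2 had 303, 387 and 278 (41.4%). No library of either dose reached the lowest Model library for these 2 genes. The same was so for 9.85% of all genes at 0.5 μM and 12.3% at 1 μM. The log2 fold changes at 0.5 μM were -1.17 ± 0.29 for CXCL8 (adjusted p = 0.0381) and -1.07 ± 0.28 for CXCL2 (adjusted p = 0.0487), and those at 1 μM were -1.64 ± 0.30 (adjusted p = 0.00145) and -1.27 ± 0.28 (adjusted p = 0.00868), all from edgeR. So 2 members were lower at each dose, where 1.16% of all genes were lower at 0.5 μM and 2.32% at 1 μM. Both comparisons use the same Model libraries.

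The calls at 0.5 μM are weak. DESeq2 gave adjusted p = 0.151 for CXCL8 and 0.124 for CXCL2, and without any 1 of the Model or FUCO-0.5 libraries, or without RES replicate 1, neither gene passed. Without Con replicate 2 or 3, any FUCO-1 library, or RES replicate 2 or 3, CXCL8 alone passed. At 1 μM CXCL8 stayed below the threshold in every leave-one-out fit, and CXCL2 lost its call without FUCO-1 replicate 1 (adjusted p = 0.0575) or replicate 3 (0.063).

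The other neutrophil attractants were not called at either dose, and whether they differed from CXCL8 and CXCL2 in response was not tested. CXCL5 had 2037, 2681 and 2908 counts at 0.5 μM and 1733, 2761 and 1573 at 1 μM, which overlap the Model libraries at both doses. Its log2 fold change was 0.46 (95% interval 0.09 to 0.83, adjusted p = 0.293) and 0.11 (-0.26 to 0.48, adjusted p = 0.81). CXCL6 had 225, 333 and 335 counts and then 164, 253 and 168 (0.30, adjusted p = 0.573, and -0.32, adjusted p = 0.43). CXCL1 had 1433, 1813 and 1633 counts and then 1060, 1853 and 916 (-0.30, adjusted p = 0.716, and -0.66, adjusted p = 0.154), and its FUCO-0.5 libraries all lay below Model in CPM, the highest at 94.8 against a lowest Model value of 95.6. Such a gap was seen in 9.85% of all genes at 0.5 μM. CXCL3 had 179, 244 and 236 and then 136, 222 and 126 (-0.22, adjusted p = 0.872, and -0.68, adjusted p = 0.30). In FUCO-1, replicate 2 gave the highest count of all 6 neutrophil attractants and of CCL20. On the CPM scale it was 1.93-fold the mean of the other 2 libraries for CXCL1, 1.88-fold for CXCL8, 1.62-fold for CCL20 and 1.37-fold for CXCL2. Without that library, singled out because these genes were high in it, 4 members were lower than Model at 1 μM. CXCL1 was among them (-1.05, adjusted p = 0.0195). In that comparison 4 were also called without FUCO-2 replicate 2. With all libraries 2.32% of all genes were lower, and the shares in these fits are not given here.

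Further from chromosome 4, CCL20 had 4040, 5379 and 4417 counts at 0.5 μM and 3633, 5457 and 3287 at 1 μM (-0.23, adjusted p = 0.689, and -0.40, adjusted p = 0.24). CX3CL1 had 2378, 2750 and 2812 counts and then 2284, 2716 and 2415 (-0.07, adjusted p = 0.887, and -0.18, adjusted p = 0.432). CXCL16 had 848, 944 and 831 and then 1063, 997 and 985 (-0.11, adjusted p = 0.641, and 0.09, adjusted p = 0.608). All 3 genes overlapped Model at both doses. In bulk RNA, fewer expressing cells and less RNA per cell cannot be told apart.

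A ratio of 2 genes inside 1 library does not depend on its depth. The ratio of CXCL8 to CXCL5 raw counts was 2.69, 2.12 and 1.75 in Con and 2.55, 2.57 and 2.27 in Model, so FFA raised the pair nearly in step. It was 0.848, 0.819 and 0.742 in FUCO-0.5 and 0.737, 0.769 and 0.669 in FUCO-1, below every Con, Model and RES library. FUCO-2 gave 0.933, 2.15 and 1.02, with replicate 2 inside the Con range. RES gave 3.19, 3.08 and 3.01, above all other libraries. The ratio of CXCL6 to CXCL5 went another way. It was 0.102 to 0.145 in Con, 0.123 to 0.139 in Model, 0.11 to 0.124, 0.0916 to 0.107 and 0.0681 to 0.085 over the rising fucoxanthin doses, and 0.0473 to 0.0497 in RES. The first ratio set the lower fucoxanthin doses apart below and RES apart above. The second was below every Con and Model library in FUCO-2 and RES. CXCL1 to CXCL5 was 1.05 to 1.18 in Con, 1.04 to 1.15 in Model and 0.562 to 0.703 in FUCO-0.5. It was 0.582 to 0.671 in FUCO-1, 0.456 to 0.881 in FUCO-2 and 0.594 to 0.705 in RES. Mean CPM of CXCL5, the divisor, was itself 137%, 108% and 136% of Model over the rising fucoxanthin doses.

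**Figure D2:**
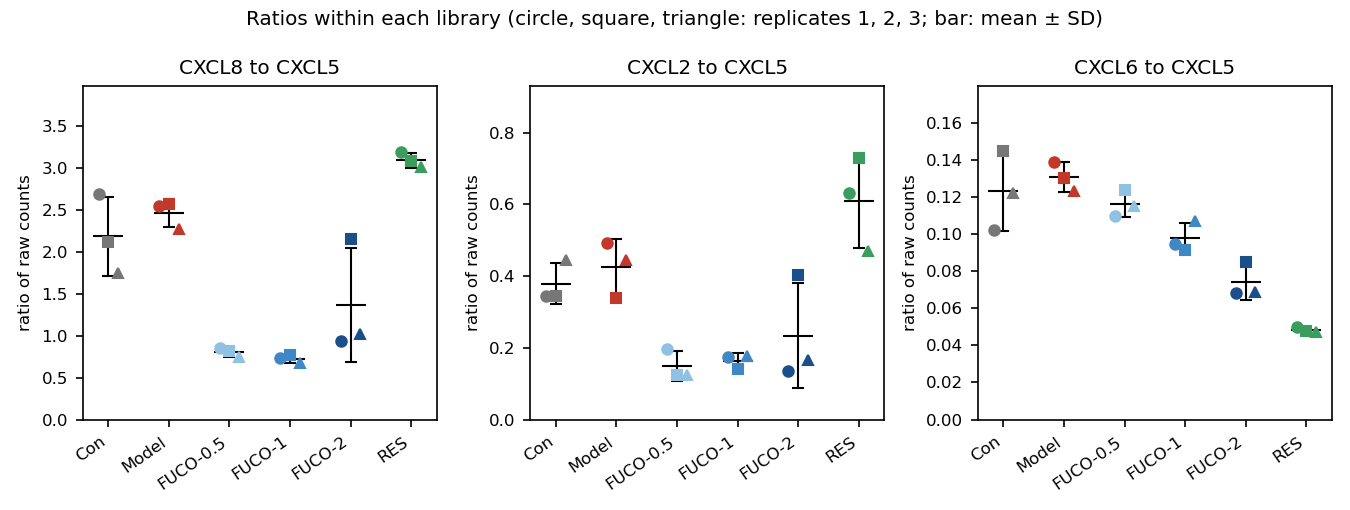
Ratio of raw counts within each library (y axis, from 0) for CXCL8, CXCL2 and CXCL6 over CXCL5, by group (x axis). Symbols are replicates 1, 2 and 3, and bars give the mean ± SD (n = 3). CXCL8 to CXCL5 lies between 0.669 and 0.848 in FUCO-0.5 and FUCO-1 and between 3.01 and 3.19 in RES.

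At 2 μM fucoxanthin the libraries disagreed. Replicates 1 and 3 were near the lower doses for most members, and replicate 2 was above or near Model. CXCL8 counts were 2125, 6398 and 2154, and CXCL2 counts were 307, 1196 and 348. CXCL1 had 1086, 2622 and 960 counts and CXCL3 had 165, 603 and 149. In all 4 genes replicate 2 was the highest of all FUCO-2 libraries and above every Model library. CCL20 (3281, 6421 and 3490 counts) showed the same order. CXCL6 (155, 253 and 145), CXCL5 (2277, 2976 and 2105), CXCL16 (979, 1125 and 920) and CX3CL1 (2216, 2419 and 1677) had smaller gaps. On the CPM scale, replicate 2 was 3.55-fold the mean of the other 2 libraries for CXCL3, 3.37-fold for CXCL2, 2.76-fold for CXCL8, 2.37-fold for CXCL1 and 1.75-fold for CCL20, but 1.25-fold for CXCL5. A ratio above 1.5 was seen in 6 of 9 members and in 0.607% of the 12850 genes with at least 10 counts in every library. FUCO-1 replicate 2 also passed 1.5 in 6 of 9 members, and in 0.872% of those genes.

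With all 3 libraries, 1 member, CX3CL1, was lower than Model at 2 μM (-0.35 ± 0.11, adjusted p = 0.0207), where 9.71% of all genes were lower, and it lost its call without Model replicate 2, Model replicate 3 or FUCO-2 replicate 3 (adjusted p = 0.0848, 0.0514 and 0.132). CXCL8 gave -0.34 (95% interval -0.93 to 0.25, adjusted p = 0.439) and CXCL2 -0.30 (-0.85 to 0.25, adjusted p = 0.462). The other differences were -0.34 for CXCL1, 0.28 for CXCL3, -0.35 for CXCL6, -0.26 for CCL20 and 0.14 for CXCL16, with adjusted p from 0.189 to 0.563. CXCL5 was higher in every FUCO-2 library than in any Model library (18.6% of all genes were), by 0.45 (adjusted p = 0.079). With the replicate block, 2 members were called, CX3CL1 lower and CXCL5 higher (0.46, adjusted p = 0.0494), where 20.9% of all genes were called in either direction. The same number was called without FUCO-1 replicate 2, a fit whose share of all genes is not given here.

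Without FUCO-2 replicate 2, 7 of the 9 members were lower than Model, where 6.61% of all genes were. Each library was left out in turn, and this fit is given because most members were high in the library left out. Its lower values and adjusted p therefore follow in part from that choice and are no separate evidence of a fall. They were CXCL2 (-1.15, adjusted p = 2.75e-06), CXCL8 (-1.01, adjusted p = 0.00533), CXCL1 (-0.88, adjusted p = 0.00473), CXCL3 (-0.61, adjusted p = 0.0447), CXCL6 (-0.59, adjusted p = 0.0493), CCL20 (-0.59, adjusted p = 0.0129) and CX3CL1 (-0.42, adjusted p = 0.0187). CXCL5 (0.33, adjusted p = 0.278) and CXCL16 (0.10, adjusted p = 0.478) were not called. Calls in the comparison of doses also depended on this library, among others. CXCL8 and CXCL2 were higher in FUCO-2 than in FUCO-1 with all libraries (1.30, adjusted p = 0.00927, and 0.97, adjusted p = 0.0386), which is 2 members where 4.07% of all genes were higher. Without FUCO-2 replicate 2 the differences were 0.63 (adjusted p = 0.157) and 0.13 (adjusted p = 0.719). Both calls were also lost without FUCO-1 replicate 1 or replicate 3. Without FUCO-1 replicate 2 there were 4 calls of members, and the share of all genes in that fit is not given here.

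**Figure D3:**
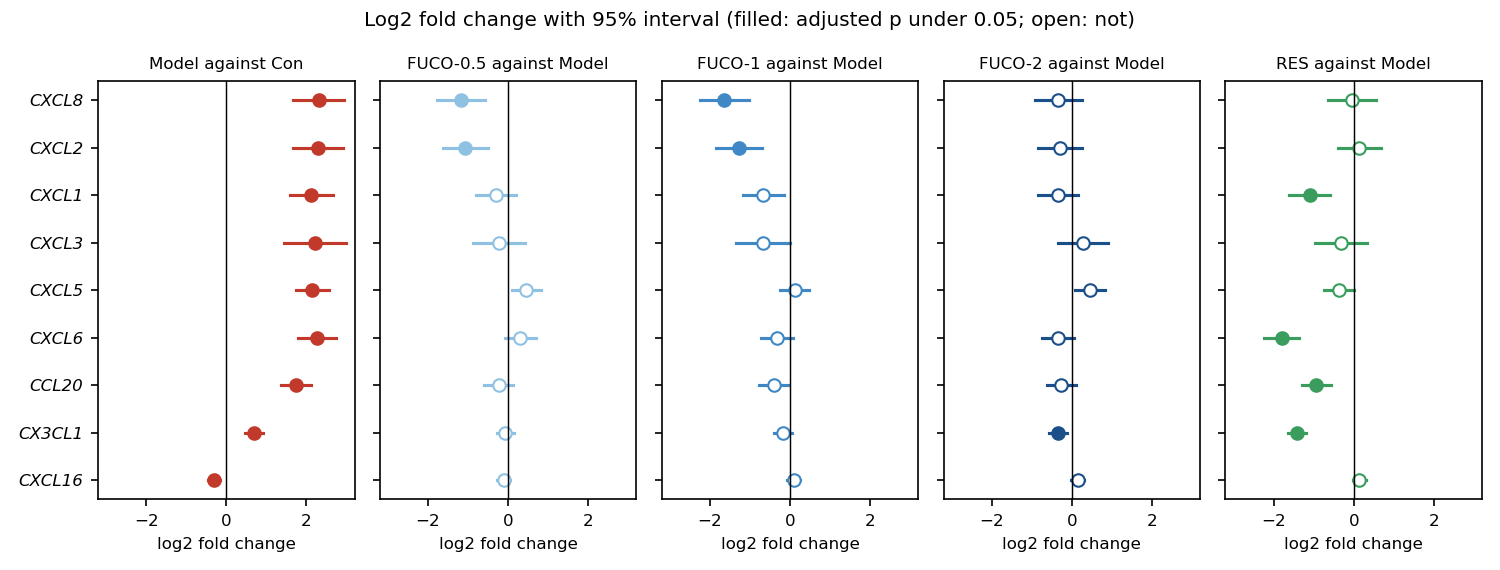
Log2 fold change (x axis) of each tested chemokine (y axis) in 5 comparisons, with the 95% interval from the edgeR fit of all 18 libraries. Filled points passed adjusted p under 0.05. CXCL8 and CXCL2 are the filled points in FUCO-0.5 and FUCO-1, while CXCL6, CX3CL1, CXCL1 and CCL20 are filled in RES.

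Resmetirom also lowered part of the family. CXCL6, CX3CL1, CXCL1 and CCL20 were lower than Model, 4 members where 25.1% of all genes were lower, and CXCL8 and CXCL2 stood at Model levels. CXCL6 counts in RES were 89, 56 and 100, all below Model (-1.79 ± 0.21, adjusted p = 1.71e-07). CX3CL1 counts were 1488, 942 and 1244, again all below (-1.42 ± 0.11, adjusted p = 1.24e-10). CXCL1 counts were 1263, 786 and 1257 (-1.10 ± 0.25, adjusted p = 0.000714) and CCL20 counts 3819, 2659 and 3478 (-0.94 ± 0.18, adjusted p = 0.000105), with no overlap in CPM. Every RES library lay below every Model library in 4 members, and in 31.8% of all genes. By contrast, CXCL8 had 5720, 3613 and 6362 counts, overlapping Model (-0.04, 95% interval -0.63 to 0.55, adjusted p = 0.915). CXCL2 had 1133, 855 and 992 counts, which in CPM lay just above all Model libraries (0.14, -0.40 to 0.67, adjusted p = 0.691), as was so for 32.2% of all genes. CXCL3 (276, 184 and 264 counts, -0.32, adjusted p = 0.423), CXCL5 (1792, 1172 and 2115, -0.36, adjusted p = 0.0961) and CXCL16 (1453, 1096 and 1111, 0.14, adjusted p = 0.119) did not pass. RES and the fucoxanthin groups were each set against the same Model libraries, and the difference between them was not tested. CX3CL1 was called lower both in RES and in FUCO-2, and without FUCO-2 replicate 2 all 4 genes lowered in RES were lower at 2 μM as well. That library was singled out because most members were high in it.

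Hepatocyte markers moved too. Of 8, 4 were lower in Model than in Con, 7 were lower than Model in FUCO-2 and 8 in RES, where 9.12%, 9.71% and 25.1% of all genes were lower. Their summed level was 62500 to 70400 CPM in Con, 51800 to 52300 in Model, 35000 to 39300 in FUCO-2 and 15000 to 15400 in RES. In RES ALB (albumin) fell by 2.17 on the log2 scale, AFP by 4.72, APOA1 by 2.56, TTR by 2.46 and TF by 1.97. The part of this wider change in the chemokine values of FUCO-2 and RES was not tested.

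None of the treatments returned the whole family to the Con level. Higher than Con were 8 members at 0.5 μM (10.4% of all genes), 7 at 1 μM (8.22%), 8 at 2 μM (13.0%) and 6 in RES (28.8%). These 4 comparisons share the Con libraries and were added after the design was set. CXCL8 in FUCO-1 was 1.58-fold the Con level (log2 0.66, adjusted p = 0.135), and its libraries overlapped Con. CXCL6 in RES was 1.38-fold (0.46, adjusted p = 0.135). CX3CL1 in RES went below Con, at 0.607-fold (-0.72, adjusted p = 5.04e-06). CXCL5 was 6.09-fold, 4.80-fold and 6.05-fold the Con level at 0.5, 1 and 2 μM.

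The genes most like CXCL8 over the 18 libraries in log2 CPM were NFKBIA (r = 0.947), CXCL2 (0.945) and CXCL3 (0.862). Those most like CXCL2 were CXCL8 (0.945), NFKBIA (0.918) and MSN (0.86). These values describe the libraries, which share groups, and carry no p. NFKBIA encodes IκBα, an inhibitor of NF-κB that is itself an NF-κB target. Con libraries held 1830, 1307 and 1418 reads of it, followed by 2937, 3285 and 3214 in Model, 2137, 2418 and 2515 in FUCO-0.5, 2161, 2347 and 1873 in FUCO-1, 2279, 5184 and 2097 in FUCO-2, and 3760, 2832 and 3657 in RES. FUCO-2 replicate 2 stood above every other library. NFKBIA was higher in Model than in Con (0.99, adjusted p = 0.000663) and was not called lower in FUCO-0.5 (-0.43, adjusted p = 0.368) or FUCO-1 (-0.60, adjusted p = 0.0839). TNFAIP3, which encodes the NF-κB inhibitor A20, had 721, 2252 and 744 counts in FUCO-2 against 1117, 1280 and 1238 in Model. Without FUCO-2 replicate 2, singled out because such genes were high in it, NFKBIA and TNFAIP3 were lower than Model (-0.45, adjusted p = 0.0104, and -0.65, adjusted p = 0.00112).

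**Figure D4:**
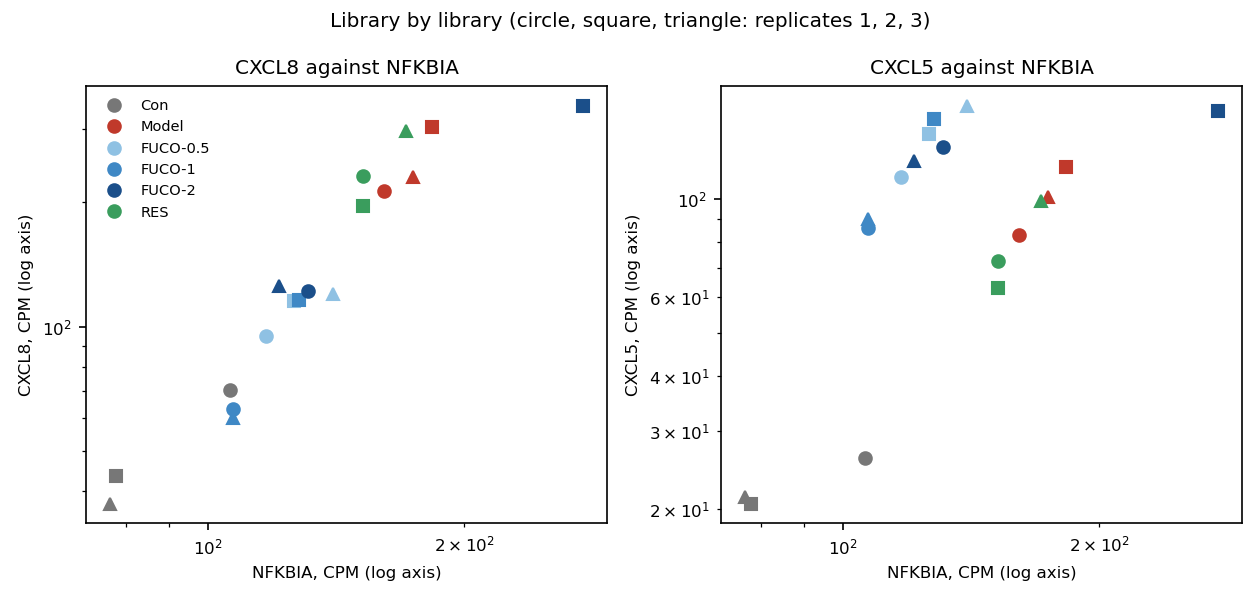
CXCL8 (left) and CXCL5 (right) against NFKBIA, each point 1 library, in CPM on log axes, coloured by group with symbols for replicates 1, 2 and 3. CXCL8 follows NFKBIA over all 18 libraries (r = 0.947), with FUCO-2 replicate 2 at the upper end. Apart from FUCO-2 replicate 2, CXCL5 in the fucoxanthin libraries is 85.8 to 162 CPM at NFKBIA of 107 to 140 CPM. No Con, Model or RES library lies within that NFKBIA range.

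Of 16 NF-κB subunits and feedback genes, 6 were higher and 2 lower in Model than in Con, where 8.43% and 9.12% of all genes were. Their median log2 fold change was 0.22, against 0.001 over all genes. BIRC3, an inhibitor of apoptosis, rose by 1.84 (adjusted p = 2.13e-05) and TNFAIP3 by 1.22 (adjusted p = 0.00117). At 0.5 and 1 μM fucoxanthin 1 gene of the list was lower at each dose, where 1.16% and 2.32% of all genes were. It was NFKBIZ, a co-activator of NF-κB (-0.62, adjusted p = 0.0215, and -0.67, adjusted p = 0.00672). At 1 μM 1 was higher, the adaptor TRAF1, where 0.893% of all genes were higher. At 2 μM 8 of 16 were higher (10.8% of all genes) and none passed as lower (9.71% of all genes). The 8 include BIRC3 (0.98, adjusted p = 0.00178) and NFKB2 (0.58, adjusted p = 0.00116). In RES 3 of 16 were higher and 5 lower, near the 24.4% and 25.1% of all genes, and TNFAIP3 was at -1.03 (adjusted p = 0.00108).

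AP-1 and EGR factors are immediate early genes that respond to growth and stress signals. The list used for them here also held the C/EBP factors CEBPB and CEBPD, which are counted below. Of 12 tested, 6 were higher in Model than in Con, where 8.43% of all genes were. They include the C/EBP factor CEBPD (1.44, adjusted p = 1.22e-06) and EGR2 (1.30, adjusted p = 0.000101). Against Model, 9 were lower at 0.5 μM, 9 at 1 μM and 7 at 2 μM, where 1.16%, 2.32% and 9.71% of all genes were. At 2 μM 2 were higher (10.8% of all genes). The median differences were -0.84, -0.85 and -0.47, against 0.001, -0.002 and 0.01 over all genes. ATF3 fell by 2.06, 2.37 and 1.16 over the 3 doses. EGR2 fell by 2.85 and 3.53 at 0.5 and 1 μM, and at 2 μM it was at 1.58 CPM against 7.07 in Model (adjusted p = 4.88e-07). EGR1 fell by 1.30 and 1.10 and FOSB by 1.39 and 1.62 at 0.5 and 1 μM, and JUN by 1.19 at 1 μM. FOSL1 rose at 2 μM (1.49, adjusted p = 0.000919). In FUCO-2 replicate 2, where most chemokine members were high, these factors stood at 0.617-fold (FOSB) to 1.26-fold (FOSL1) the mean of the other 2 libraries. FOS was at 0.63-fold, JUN at 0.749-fold and ATF3 at 1.11-fold. From 1 to 2 μM 8 of the 12 rose (4.07% of all genes), ATF3 by 1.21, EGR2 by 1.37 and FOSL1 by 1.66. In RES 2 of 12 were higher than Model and 4 lower (24.4% and 25.1% of all genes).

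Some usual inducers of these chemokines were hardly transcribed. TNF had at most 1 count and IL6 at most 2 in any library, and IL1B had 0 to 5. Other cytokines of the list were expressed, IL32 most, with 891 to 2223 counts per library. Of 24 cytokine and receptor genes 14 were tested. IL18 rose in Model (1.02, adjusted p = 0.00803), and at 2 μM 4 were higher and 1 lower (10.8% and 9.71% of all genes), led by IL6R (1.01, adjusted p = 0.00124). From 1 to 2 μM IL18 rose by 1.15. In RES 5 of 14 were higher and 6 lower, where 24.4% and 25.1% of all genes were. There, IL6R rose by 2.25, while IL1A fell by 1.58, IL1R1 by 1.04, IL1RAP by 1.34, IL1RN by 3.06 and LTB by 1.46. The most abundant of the list were IL1RAP and LTBR, at means of 159 and 154 CPM over all libraries.

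Among 9 factors of mRNA decay and stability, most of which act on AU-rich elements such as the one in CXCL8 mRNA, 2 were higher in Model (8.43% of all genes). The larger rise was in ZC3H12A (1.60, adjusted p = 9.51e-08). ZC3H12A encodes Regnase-1, a ribonuclease that cuts inflammatory mRNAs. At each of 0.5 and 1 μM 2 were lower, where 1.16% and 2.32% of all genes were. KHSRP and HNRNPD were the most abundant (764 and 383 CPM). Of 6 genes for shedding of membrane chemokines 1 was higher in Model (8.43% of all genes), and 3 were higher and 1 lower in RES (24.4% and 25.1% of all genes). ADAM10 and ADAM17, the sheddases of CX3CL1 and CXCL16, averaged 183 and 43.9 CPM.

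The rest of the chemokine family was mostly silent. Of 36 other chemokine genes listed with counts or zeros, 18 had 0 counts in all libraries, 12 had a highest count of 1 to 9, and 5 were tested. CXCL10, an interferon-induced attractant of T cells, had 14, 6 and 7 counts in Con and 37, 62 and 66 in Model (2.54, adjusted p = 1.09e-05). CXCL12, the ligand of CXCR4, was the most abundant, with 3168, 3753 and 3868 counts in Con and 1887, 2024 and 1823 in Model, all lower (-0.97, adjusted p = 1.6e-07). In RES CXCL12 fell further, to 625, 482 and 570 counts (-2.02 against Model), CXCL10 fell by 1.42 and CCL23 by 1.23. XCL1 averaged 3.26 CPM. Receptors for the members were at or near 0: CXCR1, CXCR2 and CCR2 had no counts, CX3CR1 at most 1, CXCR6 at most 2 and CCR6 at most 4. Of 3 receptors tested CXCR4 (1.27, adjusted p = 0.00239) and CCR10 (1.17, adjusted p = 0.00948) rose in Model, where 8.43% of all genes did. In RES CXCR4 fell by 1.22 and the scavenger ACKR4 rose from 0.585 to 1.23 CPM (adjusted p = 0.00299).

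Markers of other cell types were low beside ALB at 28100 CPM and APOB at 5120. Leukocyte markers summed to 5.79 to 7.80 CPM in Con and 16.4 to 22.0 in Model. That rise was in LYZ (2.33, adjusted p = 1.48e-09), and of 7 markers 2 stood above 3 counts in every library, LYZ and CD14. PTPRC and CD3E, which define leukocytes and T cells, had at most 2 and 1 counts, and MS4A1 had 0. In RES CD14 rose by 1.71 and LYZ fell by 1.40. ITGAM was higher at 2 than at 1 μM (1.98, adjusted p = 0.0406) at levels under 1 CPM. Endothelial markers summed to at most 1.93 CPM. PECAM1 rose in Model (1.78, adjusted p = 0.00488) from 13, 3 and 3 counts to 21, 25 and 23, and VWF had at most 1 count. Stellate and fibroblast markers summed to 21.6 to 23 CPM in Con, 14.3 to 19.1 in Model and 5.17 to 6.46 in RES, where PDGFRB fell by 3.39, and LRAT averaged 2.57 CPM.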

How the data were processed

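RNA sequencing of 18 Hep3B libraries in 6 groups of 3 was used, with groups and replicates taken from the sample titles. The study names 3 biological replicates per condition, so p-values measure the spread between these cultures. The authors trimmed reads with fastp, aligned them with STAR to GRCh38.p14 and deposited raw counts per gene from featureCounts. The strand setting and the treatment of multi-mapping reads are not given in the sources used here. Of 36684 symbols, 24090 had a count.

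Counts were tested with edgeR 4.0.16 in R 4.3.3: filterByExpr (minimum count 10, minimum total 15), TMM factors, and quasi-likelihood tests from a single model of the 18 libraries in which each group had its own term (prior count 0.125), and Benjamini-Hochberg adjustment over 14557 genes. A gene was called at adjusted p under 0.05. CPM used the same factors. Scripts were tested on simulated data. Alternatives were DESeq2 1.42.0 (the study's tool), RLE factors, other filters, a fold threshold, 2 groups only, a replicate block and leaving out each library.

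The members and gene lists were chosen with earlier results of these data known. The text names all members, list genes called with a log2 fold change over 1, the 2 genes of each list with the highest mean CPM, and the 3 genes most correlated with CXCL8 and CXCL2 (Pearson r of log2 of CPM plus 0.5). Other genes (such as NFKB2, TRAF1, FOS, TNF, IL6, IL1B, IL32, the receptors near 0, PTPRC, CD3E and MS4A1) were chosen after their values were seen.

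Equal replicate numbers in FUCO-2 and Model had weakly correlated deviations (r = 0.169, 0.142 and 0.136), so the block is given beside that comparison. Pairs of unequal numbers over all groups ran from -0.359 to 0.385, so these values do not show that the libraries were paired. In the other comparisons at least 1 pair was under 0.1. Within groups, no 2 libraries agreed within sampling noise.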

Additional observations from a re-analysis of the deposited data

How the results depend on the processing

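The 9 calls of Model against Con numbered 7 with a fold threshold and 9 under every other alternative. Calls of members in the other comparisons were few and moved with the processing, and the cause was not tested. With no filter on low counts there were 4 calls at 0.5 μM, 5 at 1 μM, 6 at 2 μM, 7 in RES and 5 between 2 and 1 μM, against 2, 2, 1, 4 and 2. In the main fit 1.45%, 3.21%, 20.5%, 49.4% and 6.3% of all genes were called in either direction. Shares under the alternatives are not given here, so the counts in this paragraph show only how the calls moved. Requiring at least 10 counts in every library left 1 call at 0.5 μM. DESeq2 left 0 at 0.5 μM, where edgeR gave 2, and 1 between the doses. A fold threshold left 0 at 2 μM and 1 between the doses. A fit of the 2 groups only gave 5 calls at 1 μM and 2 at 2 μM. The replicate block gave 2 at 2 μM and changed no other count by more than 1.5 times. For comparisons other than FUCO-2 against Model, the block is given here only. Leaving out 1 library gave 0 to 2 calls at 0.5 μM, 1 to 4 at 1 μM, 0 to 7 at 2 μM and 0 to 4 between the doses.

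Of 1350 alternative values for single members 12 changed sign, none of a called gene. NFKBIA and TNFAIP3, which are not members, also changed sign. Values are log2 fold changes. With the replicate block CXCL8 in RES was at 0.01, and at 2 μM NFKBIA was at -0.004 and TNFAIP3 at -0.019. Over the fits that left out 1 library, CXCL5 at 1 μM ran from -0.196 to 0.264, CXCL8 in RES from -0.22 to 0.126, and at 2 μM CXCL2 from -1.146 to 0.009, CXCL3 from -0.614 to 0.592, NFKBIA from -0.451 to 0.24 and TNFAIP3 from -0.653 to 0.297. Between 2 and 1 μM, CXCL1 ran from -0.218 to 0.715, CXCL6 from -0.277 to 0.22, CCL20 from -0.184 to 0.41 and TNFAIP3 from -0.031 to 0.919. With 3 libraries per group, 1 library could decide a call.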
